A study of Mus musculus with 12 samples.

Results

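Ezh2, Hdac1, Hdac2 and Dnmt1 encode 4 enzymes that repress genes through chromatin, and their RNA, ribosome footprints and ribosome density were followed in mouse small-intestinal organoids that differed at Eif4g2. The members were found by transcript ID and a length check, a rule that uses no measured value, although the set was proposed with earlier results of these data known. Ezh2 was read from ENSMUST00000081721, Hdac1 from ENSMUST00000102597, Hdac2 from ENSMUST00000019911 and Dnmt1 from ENSMUST00000004202. Each listed length had to lie from 25 below to 5 above the protein's length. The tables list 737 for Ezh2 (a protein of 746 residues), 473 for Hdac1 (482), 479 for Hdac2 (488) and 1611 for Dnmt1 (1620), so each was 9 short of the protein and all 4 were kept. They are 4 of 40818 transcript groups with a count. A transcript group is a set of neighbouring transcript rows whose counts matched across libraries and that were taken as sharing reads. Gene symbols come from the definition of the set, and no reference table used here pairs these transcript IDs with symbols.

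The organoids were Eif4g2+/+ (WT), Eif4g2+/- (Het) or Eif4g2-/- (KO), with 2 organoid numbers per genotype, called the first and the second in the order of the numbers in the labels. Values of a pair are given in that order. Every number gave 1 RNA-seq and 1 ribosome profiling library, 12 in all. All groups alike grew for 3 days with Noggin, R-spondin-1 and the growth factor EGF and received 0.5 µM 4-OHT, a tamoxifen metabolite, over 24 hours. The labels give no strain, age, sex or recombinase driver, and do not say whether the numbers are separate animals, so p-values measure the spread between these libraries, which may be technical. RNA-seq libraries held 199323 to 555114 counts over transcript groups and ribosome profiling libraries 2952405 to 13755533. RNA-seq depth was lowest in WT and highest in KO, so depth and genotype cannot be told apart in that assay. In ribosome profiling both KO libraries (13755533 and 9688034 counts) were deeper than every WT and Het library. Depth and the KO genotype cannot be told apart there either, and ribosome density, which uses both assays, shares this limit. The levels of Eif4g2 itself and of intestinal cell type markers were not analysed here, since those transcripts could not be paired with symbols.

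The study's title names the translation of histone modifiers through eIF4G2. As background, eIF4G2 (also known as DAP5) is a relative of the scaffold protein eIF4G1 that lacks the binding site for the cap-binding protein eIF4E and supports initiation on a subset of mRNAs. EZH2 is the catalytic subunit of Polycomb repressive complex PRC2, which methylates lysine 27 of histone H3. HDAC1 and HDAC2 are closely related class I deacetylases that remove acetyl groups from histones within the NuRD, Sin3 and CoREST complexes, and they can partly stand in for each other. DNMT1 copies DNA methylation to the new strand after replication. EZH2 and DNMT1 are known to be abundant in dividing cells, among them the progenitor cells of the intestinal crypt.

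Most estimated changes of the 4 genes with the Eif4g2 genotype were small, but the intervals of RNA and density were wide. An edgeR adjusted p under 0.05 was reached in 1 of 36 tests (4 genes, 3 genotype comparisons, 3 measures). Over all transcript groups, the share called ranged by comparison from 0.046% (density, Het vs WT) to 24.9% (footprints, KO vs WT). The 1 call among the 4 genes was Ezh2, whose footprints were 1.17-fold lower in KO than in Het, where 22.9% of all groups were called. Hdac2 had the largest estimates of the 36, a density 1.72-fold lower in KO than in Het and 1.63-fold lower in KO than in WT, with RNA 1.55-fold higher in KO than in WT, and none of these passed the adjusted test. Dnmt1 RNA was 1.35-fold lower in KO than in WT and also missed the threshold. Hdac1 levels lay within narrow ranges in both assays, but in RNA they rest on 17 to 48 counts per library and the intervals of change were wide. An unadjusted p under 0.05 was found in 10 of the 36 tests, and none of those was of Hdac1. Over all transcript groups, such p-values ranged by comparison from 1587 of 19569 (density, Het vs WT) to 7407 of 20495 (footprints, KO vs WT). All groups of organoids were measured in bulk, so fewer cells of a type and less RNA per cell cannot be told apart.

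The counts by comparison were read against all transcript groups. All 4 genes passed the filter on low counts in every comparison. For RNA, the quasi-likelihood test of edgeR called 0 of 4 genes in KO vs WT, where 15.5% of all groups tested were called, and 2 of the 4 had an unadjusted p under 0.05. It called 0 of 4 in Het vs WT (1.69% of all groups) and 0 of 4 in KO vs Het (5.99%), each with 1 gene at an unadjusted p under 0.05. In ribosome profiling edgeR called 0 of 4 in KO vs WT against 24.9% of all groups, with 2 genes at an unadjusted p under 0.05, and 0 of 4 in Het vs WT against 1.21%, with 0 genes there. In KO vs Het it called 1 of 4 against 22.9%. For ribosome density, the ratio of footprints to RNA, edgeR called 0 of 4 in KO vs WT (2.45% of all groups), 0 of 4 in Het vs WT (0.046%) and 0 of 4 in KO vs Het (1.4%), with 1, 0 and 1 genes at an unadjusted p under 0.05. With 4 genes, no count is read as differing from the share of all groups. The comparisons share libraries, so their values are not independent. DESeq2, a second count test, called 0 genes in 8 of the 9 comparisons and 1, Hdac2, in density KO vs Het. It gave an adjusted p for only 1 of the 4 genes in RNA-seq Het vs WT and KO vs Het, and for 2 in density Het vs WT.

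Levels are given as CPM, the count divided by the total over transcript groups of that library and multiplied by 1000000, and as CPM per 1000 codons where genes are compared. CPM lack the TMM scaling of the fits, whose totals also cover only the groups kept by the filter, so a fitted change near 0 can differ in sign from the difference of the CPM means. Over the 6 RNA-seq libraries the mean RNA level per length was lowest in Ezh2 (126 CPM per 1000 codons), then Hdac1 (180.2) and Hdac2 (238), and highest in Dnmt1 (255). Hdac1 (178 ± 3.1, SD, n = 2) and Hdac2 (194 ± 23) differed in WT by less than the spread of Hdac2. In KO, Hdac2 (317 ± 9.7) stood above Dnmt1 (228 ± 11), whereas in WT Dnmt1 (292 ± 52) stood above Hdac2, so the order of these genes differed between WT and KO. In footprints the order was Ezh2 (74.3 CPM per 1000 codons), Hdac2 (139.9), Hdac1 (232) and Dnmt1 (271), so Hdac1 and Hdac2 changed places. All 4 lay above the median group in footprints per length (45.4), and 64.2% to 87.8% of 19719 groups were lower. In RNA per length, Ezh2 was just below the median group (132) and the other 3 above it.

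**Figure D1:**
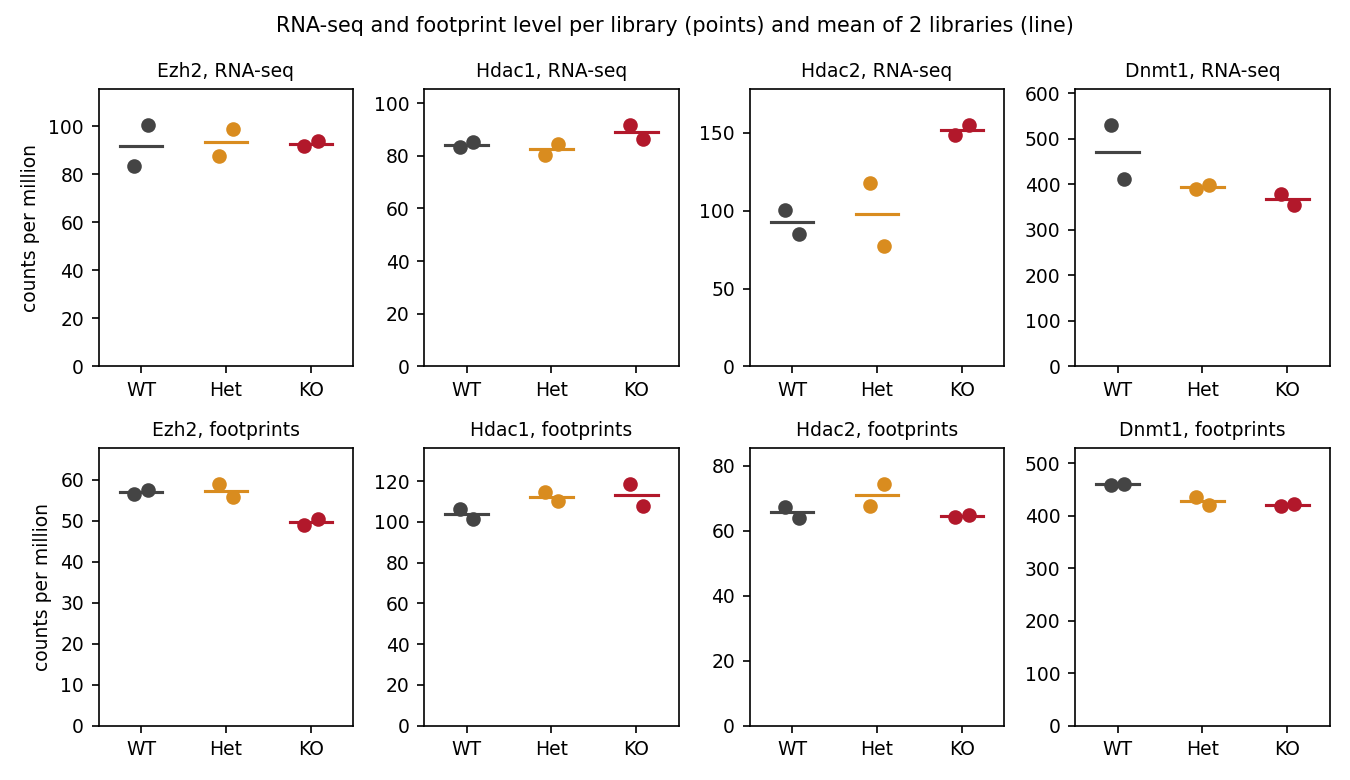
Level of each gene in each library, in CPM (vertical axes from 0), for RNA-seq (top) and footprints (bottom), by Eif4g2 genotype; points are the 2 libraries and lines their mean. Hdac2 RNA in both KO libraries (148 and 155) lies above the other 4 libraries, whereas its footprints stay between 64.0 and 74.3 in all 6. In RNA-seq, 58.8% of all groups did not overlap in KO vs WT and 49.1% in KO vs Het.

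Ezh2, the methyltransferase subunit of PRC2, had no detected RNA change, with wide intervals, and slightly fewer footprints in KO. Its RNA was 83.2 and 100.3 CPM for the WT pair, 87.7 and 98.7 for the Het pair and 91.6 and 93.7 for the KO pair. The KO values thus lay inside the range of WT and of Het. These levels rest on 19 and 20 counts for the WT pair, 35 and 28 for the Het pair and 42 and 52 for the KO pair, and a count of 19 has an exact 95% Poisson interval from 11.4 to 29.7, which covers counting error only. The log2 RNA change was -0.04 in KO vs WT, with a 95% interval from -0.61 to 0.52 (edgeR adjusted p = 0.943), and changes inside that interval are not excluded. It was -0.06 (-0.66 to 0.54) in Het vs WT and 0.02 (-0.47 to 0.52) in KO vs Het, and in all 3 comparisons the CPM means differed with the opposite sign. The sign of the fitted KO vs WT and Het vs WT values also turned with the count filter.

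Ezh2 footprints were 56.5 and 57.6 CPM for the WT pair, 58.9 and 55.9 for the Het pair and 48.9 and 50.6 for the KO pair. Both KO libraries lay below the other 4, and WT and Het overlapped. A lack of overlap was common in footprints, found in 61.2% of all groups for KO vs WT and 61.5% for KO vs Het. Means of Ezh2 were WT 57.1 ± 0.74, Het 57.4 ± 2.1 and KO 49.8 ± 1.2 CPM (SD, n = 2). In KO vs Het Ezh2 fell by 0.22 on the log2 scale (SE 0.079, edgeR adjusted p = 0.0485). The change from WT to KO was of similar size, -0.21 (95% interval -0.38 to -0.03), but was not called (edgeR adjusted p = 0.0784). Het vs WT was 0.02 (-0.16 to 0.20).

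The Ezh2 call in KO vs Het lay close to the threshold. DESeq2 gave nearly the same change, -0.22, with an adjusted p of 0.426. The edgeR adjusted p was 0.136 without a count filter and 0.0564 when every transcript row was tested, and it rose to between 0.0972 and 0.321 when any 1 of the 2 Het and 2 KO libraries was left out, with changes from -0.27 to -0.18. Ezh2 density did not differ detectably: the footprint to RNA ratio was 0.679 and 0.574 for the WT pair, 0.672 and 0.566 for the Het pair and 0.534 and 0.540 for the KO pair. Both KO ratios lay below the other 4, by less than the gap between the 2 WT ratios, and the share of all groups with such a separation was not counted. Each ratio, here and for the other genes, divides libraries of the same organoid number. Same-numbered libraries deviated together only weakly (r of 0.05 in WT, 0.17 in Het and 0.06 in KO). The spread of ratios within a genotype depends on that pairing. The log2 density change was -0.19 in KO vs WT (95% interval -0.76 to 0.38, edgeR adjusted p = 0.823) and -0.26 in KO vs Het (-0.76 to 0.25, adjusted p = 0.784). With a number left out, these ranged from -0.38 to -0.05 and from -0.39 to -0.15.

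Hdac1, a deacetylase shared by several corepressor complexes, had RNA levels in a narrow range across all 6 libraries. They were 83.2 and 85.3 CPM for the WT pair, 80.2 and 84.6 for the Het pair and 91.6 and 86.5 for the KO pair. Both KO libraries lay just above the other 4, and WT and Het overlapped. The log2 RNA change in KO vs WT was 0.01 (95% interval -0.56 to 0.59, edgeR adjusted p = 0.985), from 17 to 19 counts in the WT libraries and 42 to 48 in the KO libraries. It was -0.12 (-0.74 to 0.50) in Het vs WT, a sign that turned without a count filter, and 0.13 (-0.38 to 0.64) in KO vs Het.

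Hdac1 footprints were 106 and 101 CPM for the WT pair, 114 and 110.4 for the Het pair and 118 and 108 for the KO pair. WT was lowest, and Het and KO overlapped. With 299 to 1628 footprint counts per library the intervals were narrow: 0.11 (-0.05 to 0.26) in KO vs WT, 0.11 (-0.05 to 0.27) in Het vs WT and -0.01 (-0.15 to 0.14) in KO vs Het, on the log2 scale, with edgeR adjusted p-values of 0.313, 0.642 and 0.971. The KO vs WT value was 0.06 without the first KO number and 0.16 without the second. Of the 4 genes Hdac1 had the most footprints for its RNA. Its footprint to RNA ratio was 1.28 and 1.19 for the WT pair, 1.43 and 1.30 for the Het pair and 1.29 and 1.25 for the KO pair, whereas the median was 0.413 over 6579 groups averaging 10 or more RNA-seq counts. The KO and WT ratios overlapped, and the density change in KO vs WT was 0.07 (-0.52 to 0.66, adjusted p = 0.971).

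Hdac2, the closest relative of Hdac1 among the deacetylases, had a higher RNA level in both KO libraries, short of the adjusted threshold, and footprint levels there within the range of WT. Its RNA was 100.7 and 85.3 CPM for the WT pair, 118 and 77.6 for the Het pair and 148 and 155 for the KO pair. Both KO libraries were higher than any WT or Het library, and the 2 Het libraries lay far apart, 1 above and 1 below both WT libraries. A lack of overlap was common in RNA-seq, found in 58.8% of all groups for KO vs WT and 49.1% for KO vs Het. The counts behind the Hdac2 levels were 23 and 17 for the WT pair, 47 and 22 for the Het pair and 68 and 86 for the KO pair.

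The log2 RNA change of Hdac2 was 0.63 in KO vs WT (SE 0.27, 95% interval 0.09 to 1.17, edgeR adjusted p = 0.10) and 0.61 in KO vs Het (0.15 to 1.08, adjusted p = 0.108). Neither passed the adjusted threshold, and Het vs WT was 0.02 (-0.59 to 0.63). The KO vs Het change was 1.00 without the first Het number (adjusted p = 0.0626) and 0.42 without the second (adjusted p = 0.557). The choice of count filter moved the KO vs WT change past the threshold. Without a count filter it was 0.89 (adjusted p = 0.0373), and with at least 10 counts in every library 0.74 (adjusted p = 0.039). Both filters also changed the scaling: the fitted changes of groups shared with the reported fit shifted by a median of 0.26 (7493 groups) and 0.11 (3550 groups). Relative to that shift Hdac2 was at 0.63 under each. DESeq2 gave 0.63 with an adjusted p of 0.377.

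Hdac2 footprints were 67.3 and 64.0 CPM for the WT pair, 67.7 and 74.3 for the Het pair and 64.2 and 64.7 for the KO pair. The KO values lay inside the WT range, and both Het values were slightly higher. The log2 footprint change was -0.05 in KO vs WT (95% interval -0.21 to 0.12, edgeR adjusted p = 0.712) and -0.16 in KO vs Het (-0.32 to -0.01, adjusted p = 0.129). The latter was -0.22 without the first Het number and -0.0995 without the second.

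The ratio of Hdac2 footprints to RNA was accordingly lowest in KO. It was 0.668 and 0.751 for the WT pair, 0.575 and 0.957 for the Het pair and 0.433 and 0.418 for the KO pair. Both KO ratios lay below the other 4, and the Het ratios spanned those of WT. How often density ratios failed to overlap over all groups was not counted, so this separation is a description only. The spread of the Het ratios also depends on pairing libraries by organoid number, which was not taken as shown. The log2 density change was -0.71 in KO vs WT (SE 0.27, 95% interval -1.25 to -0.16, edgeR adjusted p = 0.183) and -0.78 in KO vs Het (SE 0.23, -1.25 to -0.31, adjusted p = 0.0855), and neither passed the threshold.

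The Hdac2 density change in KO vs Het crossed the threshold under some settings and not under others. Without a count filter it was -0.82 and not called (edgeR adjusted p = 0.3845). It was -0.84 without the first KO number and -0.74 without the second. The adjusted p was 0.0319 with DESeq2, 0.0287 with at least 10 counts in every library, 0.0296 with only KO and Het libraries fitted, and 0.0489 or 0.0471 without the first or the second WT number. The size depended on which Het number was kept: the change was -1.24 without the first Het number (adjusted p = 0.059) and -0.50 without the second (adjusted p = 0.687).

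**Figure D2:**
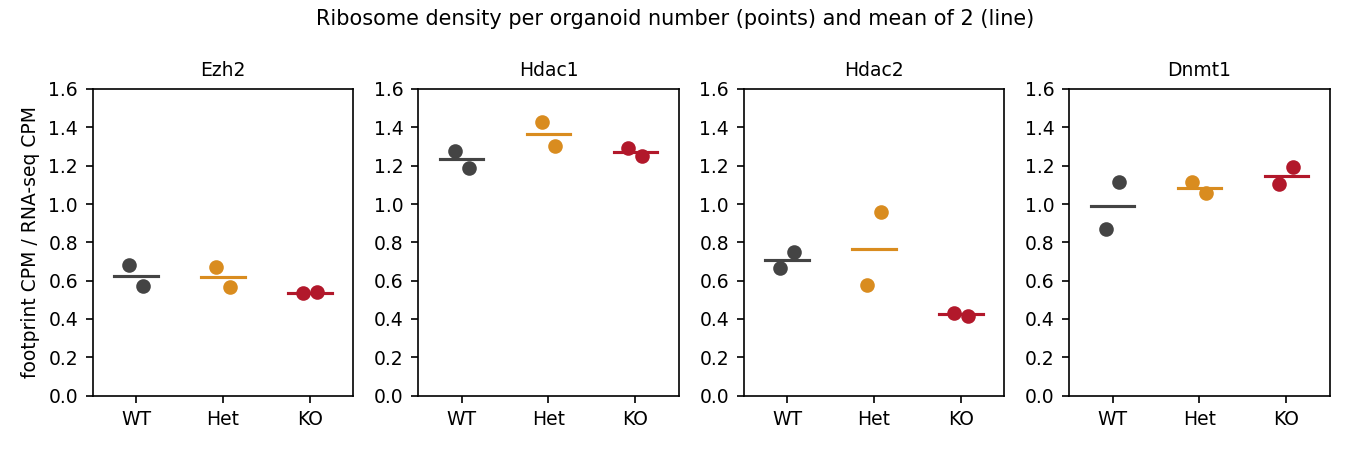
Footprint CPM divided by RNA-seq CPM for each organoid number (points) and the mean of 2 (lines), by genotype, with a common vertical axis from 0. Hdac2 in KO (0.433 and 0.418) lies below its WT and Het values, and Hdac1 has the highest ratios of the 4 genes. The share of all groups whose density ratios did not overlap was not counted.

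Dividing Hdac2 counts by Hdac1 counts within a library removes any scaling between libraries. In RNA-seq this ratio was 1.21 and 1.00 for the WT pair, 1.47 and 0.917 for the Het pair and 1.62 and 1.79 for the KO pair. In footprints it was 0.633 and 0.632 for the WT pair, 0.592 and 0.673 for the Het pair and 0.542 and 0.599 for the KO pair. The KO ratios were thus the highest in RNA, but in footprints they lay below WT and overlapped Het. Hdac2 outnumbered Hdac1 in 4 of 6 RNA-seq libraries, and Hdac1 outnumbered Hdac2 in all 6 footprint libraries. With 2 libraries per genotype no exact permutation test of such a ratio between 2 genotypes can pass a threshold of 0.05, and the ratio is given as a description.

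The other pairs of genes were set against each other in the same way. How often such ratios separated genotypes over all groups was not counted, so they are descriptions only. Ratios that share a gene use the same counts of it and are not separate observations. Hdac1 footprints divided by Ezh2 footprints gave 1.88 and 1.76 for the WT pair, 1.94 and 1.97 for the Het pair and 2.42 and 2.13 for the KO pair. Both KO ratios were the highest, and the corresponding RNA ratios lay between 0.850 and 1.00 in all 6 libraries, with KO inside the range of WT. Dnmt1 RNA divided by Hdac2 RNA gave 5.26 and 4.82 for the WT pair, 3.32 and 5.14 for the Het pair and 2.56 and 2.29 for the KO pair. These ratios were lowest in KO, below every WT and Het library. They rest on the same Hdac2 RNA counts as the Hdac2 to Hdac1 ratios. In footprints Dnmt1 to Hdac2 was 6.83 and 7.18 for the WT pair, 6.43 and 5.66 for the Het pair and 6.53 and 6.54 for the KO pair. Both KO ratios lay below WT and above Het.

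The remaining pairs, also given as descriptions with no share over all groups counted, differed in how far they separated the genotypes. Hdac2 to Ezh2 in RNA was 1.21 and 0.850 for the WT pair, 1.34 and 0.786 for the Het pair and 1.62 and 1.65 for the KO pair, highest in KO. That ratio again uses the same Hdac2 RNA counts. In footprints Hdac2 to Ezh2 was 1.19 and 1.11 for the WT pair, 1.1499 and 1.33 for the Het pair and 1.31 and 1.28 for the KO pair, so KO lay above WT and overlapped Het. Dnmt1 to Hdac1 footprints were 4.32 and 4.54 for the WT pair, 3.80 and 3.81 for the Het pair and 3.54 and 3.92 for the KO pair. KO and Het overlapped there, both below WT, whereas in RNA the KO ratios (4.14 and 4.1) lay below the other 4, which ranged from 4.71 to 6.37. Dnmt1 to Ezh2 ranged from 7.39 to 8.56 in footprints, highest in KO and lowest in Het, and from 3.79 to 6.37 in RNA, where the genotypes overlapped.

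**Figure D3:**
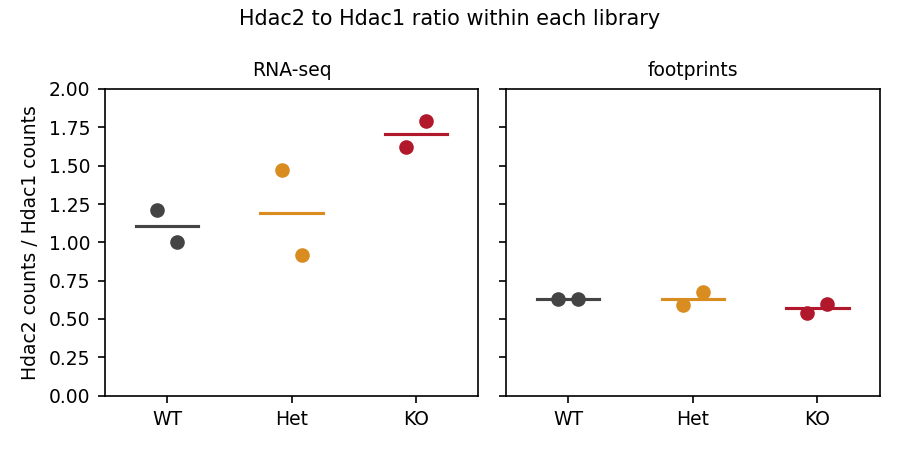
Hdac2 counts divided by Hdac1 counts in each library (points) with the mean of 2 (lines), for RNA-seq and footprints, on a common vertical axis from 0. The RNA ratio is highest in KO (1.62 and 1.79), while all 6 footprint ratios lie between 0.542 and 0.673. How often such ratios separated genotypes over all groups was not counted.

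Dnmt1, the maintenance DNA methyltransferase, was the best measured of the 4 in RNA. Its mean level per length over the libraries was the highest of the 4 in both assays, although Hdac2 RNA was higher in KO. Dnmt1 had 530 and 411 CPM of RNA for the WT pair, 391 and 398 for the Het pair and 380 and 355 for the KO pair, from 82 to 197 counts per library. The 3 genotypes did not overlap, WT being highest and KO lowest. A lack of overlap between a pair of genotypes was also found in 58.8% of all groups in RNA-seq for KO vs WT, 45.6% for Het vs WT and 49.1% for KO vs Het, and the 2 WT libraries differed from each other by more than Het differed from KO. Means were WT 471 ± 84, Het 395 ± 5.5 and KO 367 ± 17 CPM (SD, n = 2).

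The log2 RNA change of Dnmt1 was -0.43 in KO vs WT (SE 0.16, 95% interval -0.76 to -0.11, edgeR adjusted p = 0.0601), -0.35 in Het vs WT (-0.68 to -0.01, adjusted p = 0.316) and -0.09 in KO vs Het (-0.40 to 0.22, adjusted p = 0.818). None was called. Both comparisons with WT turned on the WT libraries. For KO vs WT, without the first it was -0.22 (adjusted p = 0.608), and without the second it was -0.60 and past the threshold (adjusted p = 0.04996). Het vs WT was -0.14 without the first and -0.53 without the second. Without a count filter KO vs WT was -0.18 (adjusted p = 0.844), or -0.43 relative to the median shift of 0.26 over the 7493 groups of the reported fit.

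Dnmt1 footprints were 459 and 460 CPM for the WT pair, 435 and 420.3 for the Het pair and 419 and 423 for the KO pair. WT was higher than every Het and KO library, which overlapped. The differences were small and, with 1357 to 5762 counts per library, narrowly bounded: as log2 changes, -0.14 in KO vs WT (SE 0.064, 95% interval -0.27 to -0.0047, edgeR adjusted p = 0.125) and -0.10 in Het vs WT (-0.23 to 0.04, adjusted p = 0.636). Footprint to RNA ratios of Dnmt1 were 0.867 and 1.12 for the WT pair, 1.11 and 1.05 for the Het pair and 1.1 and 1.19 for the KO pair, and KO overlapped WT. The density change in KO vs WT was 0.28 (-0.06 to 0.62, adjusted p = 0.478), opposite in sign to that of Hdac2, and the difference between the genes was not tested. It was 0.09 without the first WT number and 0.37 without the second.

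**Figure D4:**
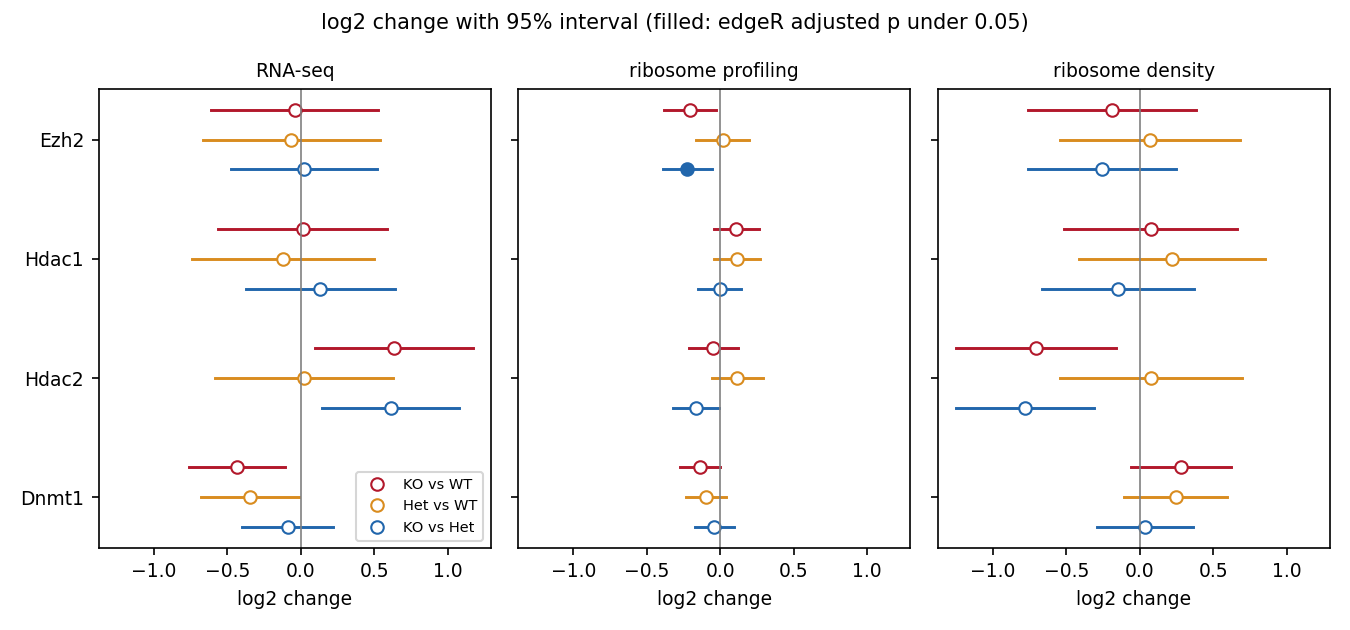
Log2 change (horizontal axis) of each gene in the 3 genotype comparisons with its 95% interval, for RNA-seq, ribosome profiling and ribosome density; filled points have an edgeR adjusted p under 0.05. The single filled point is Ezh2 footprints in KO vs Het (-0.22), and the footprint intervals are the narrowest.

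The precision of the assays differed, and it set what could be seen. Across the 4 genes and 3 comparisons, all 95% intervals of the footprint change lay between -0.39 and 0.29 on the log2 scale. Those of RNA lay between -0.76 and 1.17, and those of density between -1.25 and 0.86. For every gene, therefore, footprint differences of 2-fold (1 on the log2 scale) lay outside the interval in every comparison, whereas for Hdac2 a 2-fold difference lay inside the intervals of RNA and density between KO and either other genotype.

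The estimated changes of the 4 genes were in median smaller than those over all transcript groups, of which no test was made. The groups were not matched to the 4 genes by count level. The density fit tested 19569 groups, whereas only 7493 passed the filter in RNA-seq, as all 4 genes did. These medians therefore do not show that the 4 genes were steadier than groups of like level. The median log2 change of the 4 in KO vs WT was -0.01 in RNA-seq (all groups 0.01), -0.09 in ribosome profiling (all groups 0.0038) and -0.06 in density (all groups -0.08). The median size of the change, whatever its sign, was 0.24 in RNA-seq against 0.46 over all groups, 0.12 against 0.26 in ribosome profiling, and 0.24 against 0.64 in density. In ribosome profiling, libraries did not overlap in 61.2% of all groups for KO vs WT, 40.0% for Het vs WT and 61.5% for KO vs Het, so a lack of overlap between 2 and 2 libraries was common. The share was not counted for density or for the ratios between genes.

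**Figure D5:**
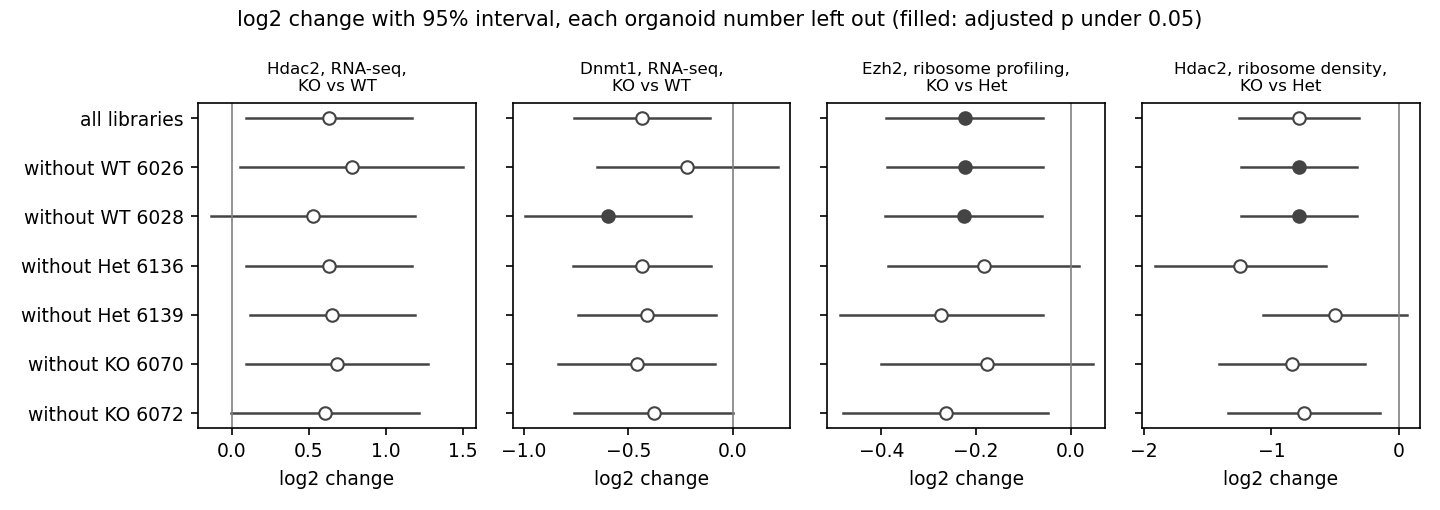
Log2 change with its 95% interval for 4 values, with all libraries and with each organoid number left out in turn (rows, named by the number in the labels); horizontal scales differ between panels and filled points have an edgeR adjusted p under 0.05. The Ezh2 footprint call is lost without any Het or KO number, and Dnmt1 RNA ranges from -0.60 to -0.22.

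Likeness to other transcript groups was measured as Pearson's r of log2(CPM + 1), centred within each assay, over the 12 libraries, among groups with a mean of at least 50 counts in both assays. Dnmt1 met that mean itself, whereas Ezh2, Hdac1 and Hdac2 fell short of it in RNA-seq. Their r values therefore rest on profiles of lower counts. The best of the groups searched (1350 or 1351) reached 0.962 for Hdac2, 0.933 for Dnmt1, 0.874 for Ezh2 and 0.859 for Hdac1. These groups could not be paired with symbols and are not named, and each r is the maximum of many, chosen for being high.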

How the data were processed

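RNA-seq and ribosome profiling were deposited as 1 table per library, holding for each transcript row an Ensembl ID, a length of unstated meaning and a raw count. The count is the authors' own, without normalization; per the submitters' processing notes CASAVA 1.8, cutadapt 3.7, UMI-tools 1.1.2, STAR 2.7.0a and the build mm39 were used, with no role given. The counting tool and annotation are not given in the sources used here. The length, the other value in the deposited tables, was taken as a coding length in codons from its match to the 4 proteins. Reads are counted on each isoform they fall on, and reads of related genes or antisense transcripts may be shared, which was not tested for these genes.

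Rows at most 25 apart were joined where their profiles over the 12 libraries were identical or matched (a chi-square below 3.05, for 11 degrees of freedom, or a log2 ratio whose SD stayed below 0.15), giving 40818 groups represented by their most counted row. Each of the 4 members was that row: Ezh2 and Dnmt1 stood for 4 rows each, Hdac1 and Hdac2 for 1. Groups were tested with edgeR 4.0.16 in R 4.3.3 (the filter filterByExpr, then scaling by TMM and the quasi-likelihood F test, two-sided, with Benjamini-Hochberg adjustment over all groups tested and a threshold of 0.05). Each assay had 1 fit (3 residual degrees of freedom). Density was the genotype by assay interaction over both assays (6 residual degrees of freedom). Intervals are 95%, from the log2 change and its standard error. DESeq2 1.42.0 was the alternative tool. The tests were tried on simulated data.

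The members and lists were chosen with earlier results of these data known. The naming rule was to name all 4 members in every comparison, and the most alike groups only if paired with symbols. The planned lists of PRC2, deacetylase, corepressor and DNA methylation genes and of cell type markers were not analysed here, for want of symbols, and no sequence is printed because none of the results turns on one.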

Additional observations from a re-analysis of the deposited data

How the results depend on the processing

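The number of genes called changed in 3 of the 9 comparisons. In RNA-seq KO vs WT it was 1 without a count filter and 1 with at least 10 counts in every library, and 0 to 1 with an organoid number left out, against 0. In footprints KO vs Het it was 0 with DESeq2, 0 without a count filter and 0 with every transcript row tested, and 0 to 1 with a number left out, against 1. In density KO vs Het it was 1 with DESeq2, 1 with at least 10 counts and 1 with only KO and Het fitted, and 0 to 1 with a number left out, against 0. With a library left out, the lone library is assumed to vary like the others. Of 456 log2 changes under alternatives, 30 turned sign, all in values that were not called; 24 of 36 gene results kept their sign throughout. Sign turned without a count filter for Ezh2 RNA in KO vs WT (0.215) and Het vs WT (0.107), Hdac1 RNA in Het vs WT (0.0525), Hdac1 footprints in KO vs Het (0.0188), and density of Hdac1 in KO vs WT (-0.0442), Ezh2 in Het vs WT (-0.0215) and Hdac2 in Het vs WT (-0.0067). With at least 10 counts it turned for Ezh2 RNA in KO vs WT (0.0679) and Het vs WT (0.0339). With DESeq2 it turned for Hdac2 RNA in Het vs WT (-0.0101), with every row for Hdac1 footprints (0.0056) and Dnmt1 density (-0.0003) in KO vs Het, and with only KO and Het fitted for the latter (-0.0145). With a number left out, RNA ranged from -0.16 to 0.0916 (Ezh2, KO vs WT), -0.0072 to 0.0608 (Hdac1, KO vs WT), -0.20 to 0.0475 (Ezh2, Het vs WT), -0.37 to 0.23 (Hdac2, Het vs WT) and -0.0557 to 0.14 (Ezh2, KO vs Het). Footprints ranged from -0.0213 to 0.0695 (Ezh2, Het vs WT) and -0.0544 to 0.0392 (Hdac1, KO vs Het), and density from -0.035 to 0.16 (Hdac1, KO vs WT), -0.12 to 0.21 (Ezh2, Het vs WT), -0.24 to 0.53 (Hdac2, Het vs WT) and -0.0179 to 0.0549 (Dnmt1, KO vs Het). The cause was not tested, except that relative to the median shift of 0.26 over the 7493 groups of the reported fit the RNA changes in KO vs WT without a count filter were -0.04 (Ezh2), 0.01 (Hdac1), 0.63 (Hdac2) and -0.43 (Dnmt1), the signs reported.

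Fitted with the organoid number as a replicate block, density calls among the 4 genes stayed at 0, and Hdac2 was -0.78 in KO vs Het (edgeR adjusted p 0.106). The RNA-seq and footprint libraries of a number deviated from their group means with r of 0.05 in WT, 0.17 in Het and 0.06 in KO, so pairing was not taken as shown. Over all groups, calls under alternatives ranged in RNA-seq from 330 to 2524 (KO vs WT, 1165 as reported), 34 to 349 (Het vs WT, 127) and 100 to 1014 (KO vs Het, 449). In ribosome profiling they ranged from 2185 to 9907 (5111), 67 to 592 (248) and 1798 to 9229 (4686), and in density from 256 to 1062 (479), 1 to 49 (9) and 126 to 577 (274), in the same order. The alternatives for pathway lists were not run.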
